A study of Mus musculus with 4 samples.

Results

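The genes described here are 37 genes of the extracellular matrix and the vascular basement membrane, taken by symbol from the UMI tables of the 4 plates. All 37 listed symbols were found, 36 of them on every plate and *Nid2* on 1 plate only, among 16408 nuclear genes in all. They were read in CD31+ CD45- TO-PRO-3- cells sorted from digested mouse aortas and profiled by SORT-seq, a plate method in which the 3′ end of each captured transcript is read once per molecule by its unique molecular identifier (UMI). Each of 4 mice filled 1 plate of 384 wells, 2 labelled Epas1 EC-KO and 2 labelled Epas1 EC-WT, on a C57BL/6 background. All 4 mice carried floxed *Epas1*, and those of the first group carried in addition 1 copy of Cdh5 Cre-ERT2, a recombinase that tamoxifen activates in cells using the *Cdh5* promoter, which their labelled EC-WT littermates lacked. Tamoxifen was given to both groups from an age of 6 weeks, and 2 weeks passed before the aortas were taken. The adventitia was pulled off early in the digestion. The order of the groups by cell number in the deposited plates is opposite to that given in the study's methods, so every direction below applies to the labels as deposited. The UMIs of *Epas1*, which come from the 3′ end, did not test the labels, since the deletion need not remove that end (log2 difference, labelled EC-KO minus labelled EC-WT, 0.19, SE 0.21, adjusted p = 0.952 by edgeR).

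Endothelial cells rest on a basement membrane, a thin sheet in which a network of type IV collagen and a network of laminins are linked by nidogens and the heparan sulphate proteoglycan perlecan. Below it the wall of the aorta is built of elastic lamellae (elastin on a scaffold of fibrillin, with fibulins), fibrillar collagens of types I, III and V, and small leucine-rich proteoglycans that bind collagen fibrils. Smooth muscle cells make most of the medial matrix and fibroblasts most of the adventitial matrix, while endothelial cells secrete basement membrane and some matrix regulators.

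The genes of the type IV collagen chains α1 and α2, *Col4a1* and *Col4a2*, are the members that lie head to head, and their paired expression is described below. The windows from 250 bases before to 50 bases after their annotated starts (RefSeq, GRCm38.p6) share 78 bases, chr8:11312777-11312854, printed in capitals, and the annotated starts lie 21 bases apart. *Col4a1* is read on the minus strand (window chr8:11312777-11313076) and *Col4a2* on the plus strand (window chr8:11312555-11312854), each 5′ to 3′.
Col4a1: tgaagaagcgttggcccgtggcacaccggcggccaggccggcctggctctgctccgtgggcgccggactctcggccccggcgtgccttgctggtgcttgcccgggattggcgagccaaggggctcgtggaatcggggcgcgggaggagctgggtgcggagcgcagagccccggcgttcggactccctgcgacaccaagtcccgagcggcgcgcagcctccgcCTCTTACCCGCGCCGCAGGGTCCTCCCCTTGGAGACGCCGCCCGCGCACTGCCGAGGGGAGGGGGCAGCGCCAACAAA
Col4a2: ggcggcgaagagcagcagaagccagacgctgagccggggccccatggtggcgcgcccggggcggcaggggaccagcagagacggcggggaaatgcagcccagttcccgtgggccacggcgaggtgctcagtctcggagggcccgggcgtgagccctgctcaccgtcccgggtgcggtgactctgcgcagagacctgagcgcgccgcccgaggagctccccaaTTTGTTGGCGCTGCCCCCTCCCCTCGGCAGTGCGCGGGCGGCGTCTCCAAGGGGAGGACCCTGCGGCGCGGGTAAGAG
Of the 37 members, 27 had a window in that table, 32 windows in all. The letters ACGTG or GCGTG, which contain the core that hypoxia-inducible factors bind, were found on either strand in 46.9% of the members' windows and in 43.8% of all 32851 windows of 300 bases. ACGTG was in 15.6% of the members' windows against 19.6% of all, and GCGTG in 37.5% against 32.4%, windows with both counted in each. *Col4a1* and *Col4a2* hold GCGTG and not ACGTG, *Col1a2*, *Col5a1* and *Chad* hold ACGTG and not GCGTG, and *Fbln1* holds both. A match of letters is a description of these windows and not a binding site.

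Wells with at least 1000 UMIs of nuclear genes and at most 25% mitochondrial UMIs were taken as cells, which left 157, 98, 114 and 72 cells in labelled EC-KO mice 1 and 2 and labelled EC-WT mice 1 and 2, the order kept in every list of 4 values below. Of these 441 cells, 21 (11, 5, 3 and 2) gave at least 1% of their UMIs to 11 contractile genes and are called contractile-gated cells. Another 417 cells (143, 93, 111 and 70) had a *Pecam1* UMI and lay under that gate (Pecam1-positive cells, also called ECs below), and 3 cells of 1 plate were in neither set. The Pecam1-positive cells held 1005253, 755186, 641363 and 549570 UMIs, with medians of 6301, 7419, 3821 and 5753 per cell. Their endothelial list (14 genes) summed to 10619 to 13875 CPM (UMIs of a gene or list per 1000000 UMIs of the cell set), their contractile list to 229 to 941 CPM, their pericyte list (6 genes) to 37.4 to 57.7 CPM, and the leukocyte gene *Ptprc* was at 1 UMI in all of them. A list of 14 fibroblast genes outside the members, 13 of them in the files, summed to 910 to 1096 CPM. Of the 13, 1 was at 0 over all mice. Over all mice the list summed to 1010 CPM, of which *Mfap5* gave 514 CPM and *Gsn* 410 CPM. The fibroblast gene *Pdgfra* had 8 UMIs in all Pecam1-positive cells. In the 480 wells of plate rows L to P no well passed the cell filter and the median well held 21 to 63 UMIs. The share of those wells with a UMI of a gene is given beside shares of cells as the level reached without a passing cell.

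The 37 genes together made up 3.15%, 3.73%, 3.44% and 3.19% of the UMIs of the Pecam1-positive cells, 99390 UMIs in all. The mean was 3.44% ± 0.41 (SD, n = 2) in mice labelled EC-KO and 3.31% ± 0.18 (SD, n = 2) in mice labelled EC-WT, and the groups overlapped. Since every transcript gives 1 tag, levels of different genes were compared as CPM without a correction for length. The genes *Mgp*, *Bgn*, *Eln*, *Sparc* and *Timp3* held 75.9% of the members' UMIs. *Mgp*, which encodes the calcification inhibitor matrix Gla protein, stood at 6020, 8366, 9020 and 5326 CPM. *Bgn*, the small proteoglycan biglycan, stood at 5376, 6151, 5593 and 5546 CPM, and *Eln*, elastin, at 3985, 6090, 5485 and 4161 CPM. *Sparc*, a collagen-binding glycoprotein, stood at 4355, 4823, 3767 and 4513 CPM and *Timp3*, a metalloproteinase inhibitor that stays bound to matrix, at 2959, 3928, 3315 and 4127 CPM. All 5 stood above every other member in every mouse, and in none of them did the labelled groups separate.

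**Figure D1:**
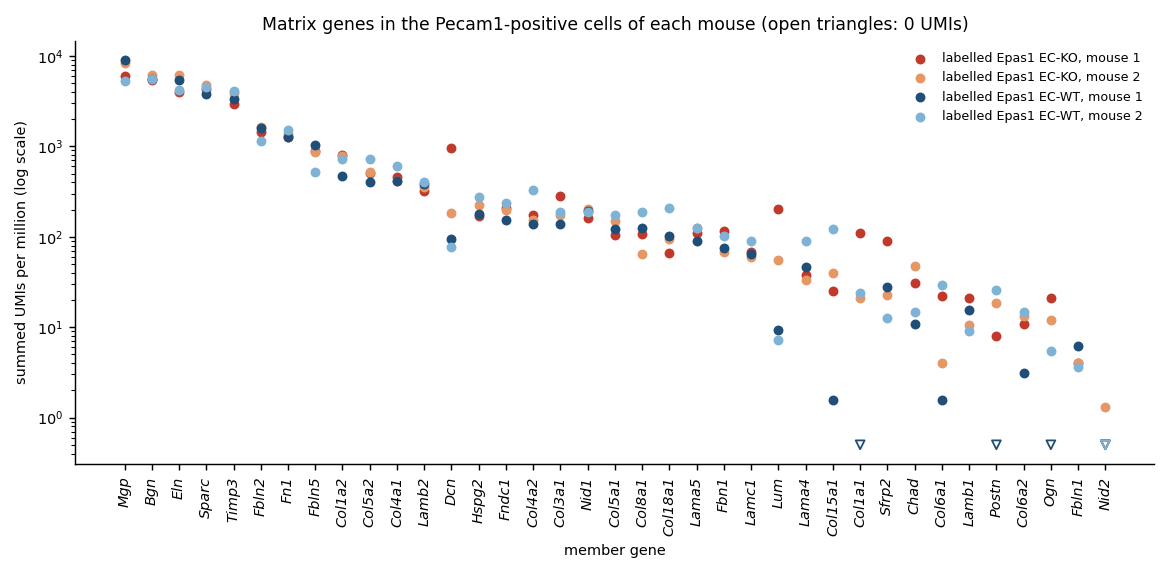
Summed UMIs in CPM of each member gene in the Pecam1-positive cells (y axis, log scale), 1 point per mouse, genes ordered by their mean over mice. The leading 5 genes lie between 2959 and 9020 CPM, and *Dcn* and *Lum* lie apart in mouse 1 labelled Epas1 EC-KO.

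The main question for each gene was whether most ECs carried it or a few cells did. A gene was called spread when at least 50% of the Pecam1-positive cells of every mouse had a UMI of it, carried by few cells when at most 20% did in every mouse, and intermediate otherwise. By this rule 12 genes were spread, 13 were intermediate and 12 were carried by few cells. The share also depends on depth, so the share that the same UMIs would reach if they fell on cells in proportion to each cell's total is given as the even share. After each cell was thinned to 1000 UMIs, 7 genes were spread, 9 intermediate and 21 carried by few cells, and 23 of 37 genes kept their class. For *Bgn*, *Sparc*, *Mgp*, *Eln* and *Timp3* the even share was itself close to 100%, so their shares do not tell how evenly the cells carried them. A single cell of mouse 2 labelled EC-WT held 19.7% of the *Timp3* UMIs of that mouse. Over all cells every member but *Nid2*, which had 1 UMI, lay under its even share. The ratio of share to even share was lowest for *Lum* (0.15), *Sfrp2* (0.26), *Dcn* (0.27), *Col1a1* (0.28) and *Col15a1* (0.32). *Dcn* and *Lum* lay under their even share within every mouse.

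**Figure D2:**
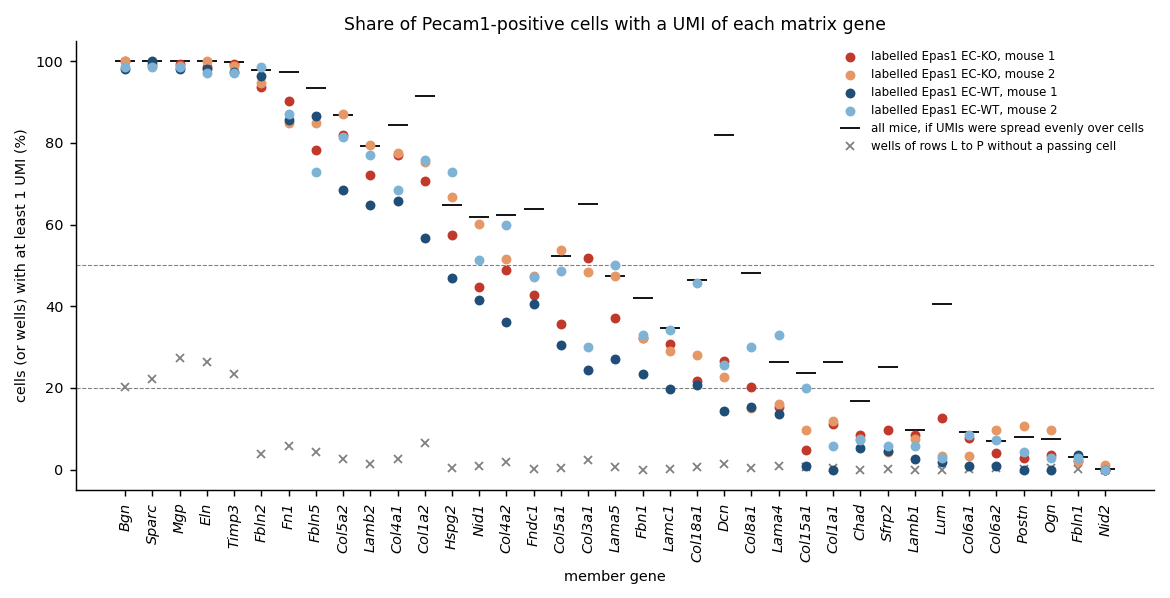
Share of Pecam1-positive cells with at least 1 UMI (y axis, percent) for each member gene, 1 point per mouse, with the even share (black bars), the share of wells of rows L to P (crosses) and dashed lines at 50% and 20%. Points and bars both lie near 100% for *Bgn* to *Timp3*. For every gene but *Nid2* the share over all cells lies under the bar, which pools the mice. It is 22.3% against 81.9% for *Dcn* and 6.0% against 40.5% for *Lum*.

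Elastic fibre genes and secreted glycoproteins gave most of the spread genes. *Bgn*, *Sparc*, *Mgp*, *Eln* and *Timp3* had a UMI in 97.1% to 100% of the cells of every mouse, and in 20.2% to 27.3% of the wells of rows L to P. Fibulin 2 (*Fbln2*), which joins elastic fibres to basement membrane, was in 95.4% of cells and 3.75% of those wells, at 1438, 1650, 1597 and 1148 CPM. Fibronectin (*Fn1*) was in 87.3% of cells at 1263, 1381, 1272 and 1516 CPM, and *Fbln5*, a fibulin needed for elastic fibre assembly, in 81.1% at 899, 857, 1038 and 515 CPM. The thinned cells kept *Bgn*, *Sparc*, *Mgp*, *Eln*, *Timp3*, *Fbln2* and *Fn1* as spread. Fibrillin 1 (*Fbn1*) was intermediate, in 30% of cells and none of the wells of rows L to P, and *Fbln1* was in 2.64% of cells at 3.64 to 6.24 CPM. *Fndc1*, a fibronectin type III domain gene, was in 42.7%, 47.3%, 40.5% and 47.1% of cells at 208, 196, 153 and 235 CPM.

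Type I collagen is built from 2 α1 chains and 1 α2 chain, and the genes of these chains were unequal in the Pecam1-positive cells. *Col1a2* was in 70.6%, 75.3%, 56.8% and 75.7% of cells at 811, 787, 471 and 731 CPM. *Col1a1* was in 11.2%, 11.8%, 0% and 5.71% of cells at 111, 21.2, 0 and 23.7 CPM, and the 0 of mouse 1 labelled EC-WT allows up to 4.68 CPM. The cells held 2113 *Col1a2* UMIs and 141 *Col1a1* UMIs, a ratio of 15, and the ratio was 7.28, 37.1 and 30.9 in the mice with *Col1a1* UMIs. In the contractile-gated cells the ratio was 3.13, from 616 and 197 UMIs, so *Col1a1* was read by this assay. Of 287 cells with *Col1a2*, 29 (10.1%) also had *Col1a1*, and 29 of 31 cells with *Col1a1* (93.5%) had *Col1a2*. *Col1a2* was also in 6.46% of the wells of rows L to P and *Col1a1* in 0.417%.

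Type V collagen, which regulates fibril width, showed less of a gap between its chains. *Col5a2* was spread, in 79.4% of cells at 511, 518, 407 and 722 CPM, and *Col5a1* was intermediate, in 40.5% of cells at 105, 150, 123 and 173 CPM. The ratio of *Col5a2* to *Col5a1* UMIs was 4.85, 3.46, 3.30 and 4.18. *Col3a1*, of the type III fibrils of vessel walls, was in 51.7%, 48.4%, 24.3% and 30% of cells. The beaded filament collagens *Col6a1* and *Col6a2* were carried by few cells, 21 each, and 4 cells had both.

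Among the basement membrane and network-forming collagens, *Col4a1* was spread and *Col4a2* intermediate. *Col4a1* stood at 458, 418, 410 and 608 CPM and *Col4a2* at 172, 154, 137 and 326 CPM, with mouse 2 labelled EC-WT highest in both. *Col4a1* exceeded *Col4a2* in every mouse, 2.66, 2.72, 2.99 and 1.87 times. Of the cells with *Col4a2*, 84.5% also had *Col4a1*, and of those with *Col4a1* 55.8% had *Col4a2*. Across the 417 cells, Pearson's r between their log-normalized levels was 0.30 (0.35, 0.31, 0.23 and 0.27 within mice), the sixth highest of the 231 pairs among the 22 members found in at least 25% of cells. *Col18a1*, the source of endostatin, stood at 65.7, 95.3, 103 and 209 CPM, and *Col8a1*, of the network under endothelium, at 107, 64.9, 125 and 187 CPM. *Col15a1* was carried by few cells in 3 mice and lay at the limit of 20% in mouse 2 labelled EC-WT, with 25, 30, 1 and 67 UMIs per mouse.

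Laminin chains differed widely in level. *Lamb2*, the β2 chain, was the only spread gene among them, at 324, 358, 380 and 408 CPM in 72.0%, 79.6%, 64.9% and 77.1% of cells. *Lamb1* was carried by few cells (6.24%), and *Lamb2* UMIs exceeded *Lamb1* UMIs 15.5, 33.8, 24.4 and 44.8 times. The α5 chain (*Lama5*) was in 38.8% of cells, the α4 chain (*Lama4*) in 18.0% and the γ1 chain (*Lamc1*) in 28.1%. *Lama5* UMIs exceeded *Lama4* UMIs 2.89, 3.76, 1.93 and 1.41 times. *Nid1*, which links laminin to collagen IV, was in 48.4% of cells, while *Nid2* gave 1 UMI in all. Perlecan (*Hspg2*) was in 57.3%, 66.7%, 46.8% and 72.9% of cells, which missed the rule for spread in mouse 1 labelled EC-WT alone. The order of mean levels, *Lamb2*, *Hspg2*, *Nid1*, *Lama5*, *Lamc1*, *Lama4* and *Lamb1*, was kept in every mouse at *Lamb2* over *Hspg2*, *Nid1* over *Lama5*, *Lama5* over *Lamc1* and *Lama4* over *Lamb1*. *Nid1* lay above *Hspg2* in mouse 1 labelled EC-WT, and *Lamc1* equalled *Lama4* in mouse 2 labelled EC-WT.

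Of the small leucine-rich proteins, biglycan stood apart from decorin and lumican, its relatives that bind fibrillar collagen. *Dcn* gave 963, 138, 61 and 42 UMIs, 1204 in all, in 26.6%, 22.6%, 14.4% and 25.7% of cells against even shares within these mice of 96.1%, 68.4%, 36.1% and 38.8%. Only 3 of the 417 cells held 50% of the *Dcn* UMIs, all of mouse 1 labelled EC-KO, and 1 cell held 393. *Lum*, on chromosome 10 beside *Dcn* (GRCm38, GENCODE M21, 97565128 to 97572703 against 97479609 to 97518143, both on the plus strand), gave 205, 42, 6 and 4 UMIs, with 2 cells holding 50% of them. Of the 25 cells with *Lum*, 21 (84.0%) had *Dcn*, and those 21 were 22.6% of the 93 cells with *Dcn* and held 83.6% of its UMIs. The cell with most *Dcn* also held 103 *Lum*, 34 *Col1a1* and 91 *Gsn* UMIs, 18 *Pecam1* UMIs and 4 *Cdh5* UMIs among its 16227. *Ogn*, osteoglycin, and *Chad*, chondroadherin, were in 3.84% and 7.19% of cells, and 1 cell of mouse 2 labelled EC-KO held 23 of the 82 *Chad* UMIs with no *Dcn* or *Lum*.

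The remaining genes carried by few cells were *Sfrp2*, a secreted Wnt regulator, and *Postn*, periostin. A single cell of mouse 1 labelled EC-KO held 70 of the 133 *Sfrp2* UMIs. That cell had 53 *Dcn*, 44 *Col3a1*, 29 *Col1a1* and 11 *Ogn* UMIs, 6 *Pecam1* UMIs and no *Cdh5* UMI among 6326. It also had UMIs of 6 genes of the fibroblast list. *Postn* was in 4.08% of cells, with 36 UMIs.

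**Figure D3:**
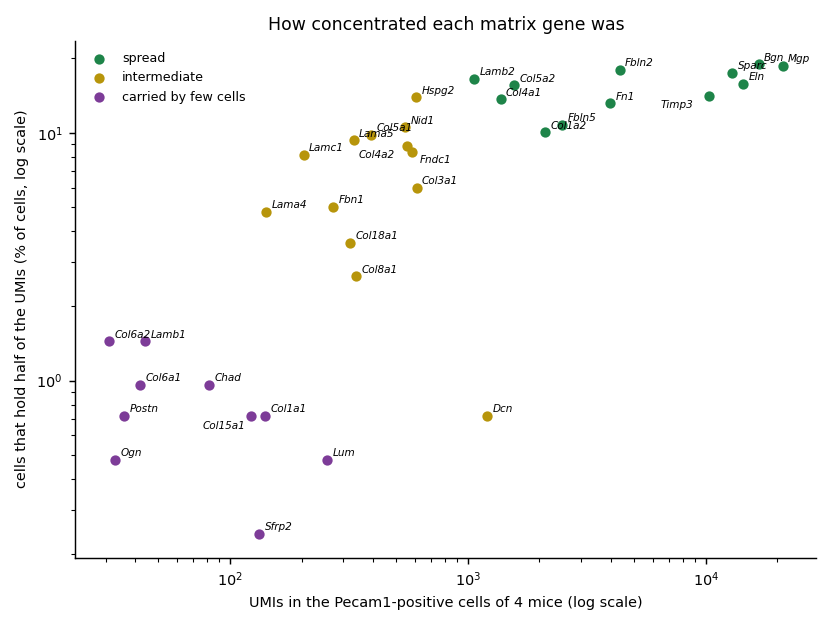
Percent of the 417 Pecam1-positive cells that hold 50% of a gene's UMIs (y axis, log scale) against the gene's UMIs in all 4 mice (x axis, log scale), 1 point per member with at least 30 UMIs. *Dcn* has 1204 UMIs with 50% of them in 0.719% of cells, whereas *Lamb2* at 1064 UMIs needs 16.5% of cells.

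The contractile-gated cells were compared with the Pecam1-positive cells of the same mice (UMIs summed per mouse, mouse as block, edgeR's quasi-likelihood test, p adjusted after Benjamini and Hochberg over 5234 genes). The gate used the contractile genes and none of the members. *Acta2*, which the gate used, stood at 24033 CPM in gated cells against 287 CPM. The gated cells were not free of EC transcripts: their endothelial list summed to 1928 to 5328 CPM, 7 of the 21 cells had more than 5 *Pecam1* UMIs and 6 had none, and the part of mixed wells in the values below was not tested. Their pericyte list summed to 726 to 1928 CPM, and their fibroblast list to 1340, 782, 1839 and 3693 CPM against 1039, 1096, 948 and 910 CPM in Pecam1-positive cells, higher in 3 of 4 mice. The part of these lists was not tested either. Mouse 1 labelled EC-WT gave only 7614 gated UMIs, for which 3 UMIs are 394 CPM.

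Of 30 members that passed the filter on low counts, 10 were higher in gated cells and 3 were lower at an adjusted p under 0.05, beside 3.65% of all tested genes higher and 5.75% lower. The filter asked for 4 libraries at 31.0 CPM, and 7 of the 13 reached it only with the libraries of the set in which they were higher (*Ogn*, *Postn*, *Col6a1*, *Col1a1* and *Col15a1* in the gated cells, *Fndc1* and *Dcn* in the Pecam1-positive cells). The count is therefore a description, and these 7 are given below with no p of the filtered fit. With no filter on low counts all 7 were called too, with *Lum* and *Chad* lower and *Col6a2* higher in addition, but in that fit the median over all genes was -0.89. The median difference was 0.31 for the tested members and -0.25 for all tested genes on the log2 scale. By role, 4 of 6 tested fibrillar and interstitial collagens and 3 of 5 basement membrane and network-forming collagens were higher, and none of 6 tested laminins and linkers passed in either direction. Over gated cells with at most 5 *Pecam1* UMIs *Lama4* was called higher (1.76, adjusted p = 0.0318, edgeR). *Nid1* stood at -2.80 there, with no p since it reached the filter of the reported fit only with the Pecam1-positive cells. *Lamc1* stood at 1.24 and was not called. It was called higher only in a fit without the mouse block, which ignores that both cell sets came from the same mice (1.59, adjusted p = 9.32e-04, edgeR).

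Osteoglycin and periostin stood higher in the gated cells of every mouse. *Ogn* stood at 1177, 1313, 1182 and 1029 CPM in gated cells against 20.9, 11.9, 0 and 5.46 CPM in Pecam1-positive cells (fitted log2 difference 6.86, SE 0.56), with no overlap and in 15 of 21 gated cells. *Postn* stood at 1753, 1240, 131 and 1029 CPM against 7.96, 18.5, 0 and 25.5 CPM (6.41, SE 0.60), where the 131 CPM rest on 1 UMI. *Col1a1* was higher in gated cells in 4 of 4 mice, at 1715, 375, 263 and 1332 CPM (fitted log2 difference 4.71, SE 0.53). *Col6a1* was higher in 4 of 4 mice by a fitted 4.70 (SE 0.61), though it no longer passed the low-count filter without the gated cell richest in members, nor did it or *Postn* over gated cells with at most 5 *Pecam1* UMIs, and *Col6a2*, which did not pass the filter, stood at 510 CPM against 10.5. *Col3a1* stood at 5747, 1783, 131 and 3996 CPM against 283, 175, 139 and 189 CPM, higher in 3 of 4 mice (3.41, SE 0.54, adjusted p = 1.73e-08, edgeR).

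Both chains of type IV collagen and the endostatin collagens were read in gated cells too. *Col18a1* stood at 1089, 719, 788 and 787 CPM against 65.7, 95.3, 103 and 209 CPM (2.81, SE 0.48, adjusted p = 2.36e-07, edgeR), and the sets did not overlap. *Col15a1* was higher in 3 of 4 mice by a fitted 3.39 (SE 0.56). *Col4a2* was higher in 4 of 4 mice by 1.88 (SE 0.45, adjusted p = 9.20e-04, edgeR), at 939, 532, 1313 and 545 CPM. *Col4a1*, also higher in 4 of 4 mice, differed by 0.61 (SE 0.45) and was not called (adjusted p = 0.531, edgeR), and its ratio to *Col4a2* was 1.23 in gated cells against 2.47. *Fbn1* and *Col1a2* passed narrowly, by 1.46 (adjusted p = 0.0457) and 1.42 (adjusted p = 0.0476, edgeR), and both calls were lost without either mouse labelled EC-KO or without mouse 2 labelled EC-WT, at adjusted p = 0.144 to 0.644. Both also failed with DESeq2, with no low-count filter, at either other gate and without the gated cell richest in members. The call of *Col4a2* was lost without mouse 1 (1.56, adjusted p = 0.150) or mouse 2 labelled EC-KO (1.82, adjusted p = 0.0811, edgeR). It was lost also without the gated cell richest in members (1.97, adjusted p = 0.0503, edgeR). *Col15a1* stood at 2.45 without mouse 1 labelled EC-KO, uncalled.

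Lower in the gated cells were 3 members. *Fndc1* had 1 UMI in all gated cells against 584 in Pecam1-positive cells, a ratio of CPM values of 0.0253 (95% counting interval 0.000639 to 0.141). *Fbln2* stood at 213, 136, 394 and 60.5 CPM against 1438, 1650, 1597 and 1148 CPM (log2 difference -3.19, SE 0.52, adjusted p = 8.13e-08, edgeR), with no overlap. *Dcn* stood at 75.1, 10.4, 394 and 0 CPM, lower in 3 of 4 mice (-2.69, SE 0.69). It stood at -1.70 without mouse 1 and -2.17 without mouse 2 labelled EC-KO, and at -1.17 with the gate at 0.5%. With DESeq2 it stood at -2.38, and at -2.04 without the gated cell richest in members, and none of these fits called it. None of the abundant genes was called. *Bgn* differed by -0.75 (SE 0.52) and was lower in gated cells in 4 of 4 mice. The others differed by less than their errors: *Eln* by -0.44 (SE 0.51), *Timp3* by -0.14 (SE 0.49), *Mgp* by 0.24 (SE 0.57) and *Sparc* by 0.30 (SE 0.53). *Mgp* varied widely in gated cells, at 4821, 18107, 32966 and 3027 CPM, higher than in Pecam1-positive cells in 2 mice and lower in 2. *Mgp* turned to -1.69 without the gated cell richest in members, -1.70 over gated cells with at most 5 *Pecam1* UMIs and -0.65 at the 2% gate, without a call. *Chad*, *Lamb1*, *Fbln1* and *Nid2* had no UMI in gated cells, which allows up to 15 CPM by counting error only. *Chad* stood at 27.8 CPM in Pecam1-positive cells, but only 7.19% of those cells had it. The cell with most *Chad* held 23 of its 82 UMIs. With 21 gated cells, the 0 alone does not show that *Chad* was lower there.

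**Figure D4:**
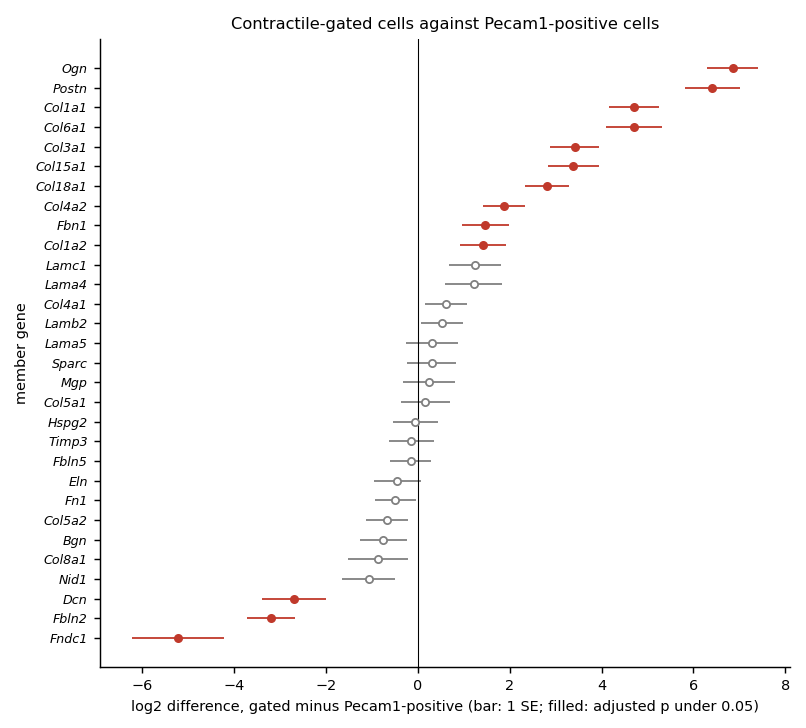
Log2 difference of the tested members, contractile-gated minus Pecam1-positive cells (x axis), with 1 SE as bars and filled points at an adjusted p under 0.05, genes in order of the difference. *Ogn* at 6.86 and *Postn* at 6.41 lie at the top and *Fndc1* and *Fbln2* at the bottom. Filled points include the 7 members that reached the filter on low counts only with the set in which they were higher.

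The labelled genotypes were compared over the Pecam1-positive cells summed per mouse, 2 mice against 2 (edgeR's quasi-likelihood test, 8123 genes). No member of 33 tested and no gene in all (0%) was called at an adjusted p under 0.05 by edgeR, and none by DESeq2. At an unadjusted p under 0.05, 9 members and 461 genes (5.68%) passed. Of these members *Lum*, *Col1a1*, *Chad* and *Sfrp2* reached the filter on low counts only with the mice labelled EC-KO, so the count is a description. Tested members whose groups did not overlap were *Dcn*, *Lum*, *Chad* and *Col1a2*, higher in both mice labelled EC-KO, and *Col8a1*, *Col18a1*, *Lama4* and *Lamb2*, lower in both, 4 of 33 in each direction, while 15.5% of all tested genes lay higher and 20% lower without overlap. The median log2 difference was 0.08 for the members and 0.00 for all genes, and 23 of 33 members differed by less than 0.5.

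*Lum* and *Dcn* differed most. *Lum*, *Col1a1*, *Chad* and *Sfrp2* reached the filter on low counts only with the mice labelled EC-KO, where they were higher, and are given without p. *Lum* stood at 204, 55.6, 9.36 and 7.28 CPM (log2 difference, labelled EC-KO minus labelled EC-WT, 4.0, SE 0.62). *Dcn* stood at 958, 183, 95.1 and 76.4 CPM (2.79, SE 0.53, adjusted p = 0.173 by edgeR), of which 393 UMIs of mouse 1 labelled EC-KO were from 1 cell. *Col1a1* differed by 2.66 (SE 0.82), *Chad* by 1.64 (SE 0.46) and *Sfrp2* by 1.52 (SE 0.57), and none was called. Without mouse 1 labelled EC-KO *Dcn* stood at 1.09, *Col1a1* at 0.91 and *Sfrp2* at 0.12, uncalled. *Lum* stood at 2.71 there, and at 3.83 to 4.64 with another mouse left out. With another mouse left out *Sfrp2* stood at 1.08 to 2.25, and *Col1a1* at 3.38 without mouse 2 labelled EC-KO and 1.60 without mouse 1 labelled EC-WT. Without mouse 2 labelled EC-WT *Col1a1* stood at 8.80, which rests on 0 *Col1a1* UMIs in the labelled EC-WT mouse left. The contractile list moved in the same direction in these cells, at 581, 941, 229 and 346 CPM, as did *Acta2*, at 267, 604, 63.9 and 147 CPM, and the fibroblast list, at 1039, 1096, 948 and 910 CPM. Over the 135 cells with a UMI of at most 1 gene of the fibroblast list, *Dcn* differed by 4.52 (adjusted p = 6.15e-14, edgeR). These were shallower cells, with a median of 2730 UMIs, since *Gsn* and *Mfap5* of that list were in 70.7% and 79.4% of Pecam1-positive cells, and they still held cells of mouse 1 labelled EC-KO with 147 and 82 *Dcn* UMIs. The part of the contractile and fibroblast genes in the differences was not tested. In the other direction *Col18a1* differed by -0.92 (SE 0.30), *Lama4* by -0.87 (SE 0.35), *Col15a1* by -0.86 (SE 0.77), *Col8a1* by -0.79 (SE 0.28) and *Col4a2* by -0.45 (SE 0.30), with mouse 2 labelled EC-WT the highest in each. With 1 mouse left out, which leaves a single mouse whose spread is taken from the other group, 1 to 8 members were called. *Dcn* was called with any mouse left out but mouse 1 labelled EC-KO. Without mouse 1 labelled EC-WT, *Col18a1* at -1.34 (adjusted p = 5.96e-04), *Col15a1* at -1.89, *Col8a1* at -1.04 and *Col4a2* at -0.94 were called. Without mouse 2 labelled EC-WT *Col15a1* stood in the opposite direction, at 4.23, and it was left there with 1 UMI in the labelled EC-WT group. In their deposited names, the plates of mouse 2 labelled EC-KO and mouse 1 labelled EC-WT shared a code. The labels do not say what it stands for. Between these 2 mice *Dcn* differed by 0.91, *Lum* by 2.25, *Sfrp2* by -0.30, *Col18a1* by -0.12 and *Col4a2* by 0.14. No test was possible, and *Col1a1* and *Col15a1* rested there on 16 and 30 UMIs against 0 and 1.

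The abundant spread genes stood close together in the labelled groups. *Bgn* differed by 0.08 (SE 0.20), *Mgp* by 0.03 (SE 0.26), *Eln* by 0.09 (SE 0.23), *Sparc* by 0.18 (SE 0.20), *Timp3* by -0.08 (SE 0.21), *Fn1* by -0.04 (SE 0.19) and *Fbln2* by 0.20 (SE 0.21).

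Levels also varied among the Pecam1-positive cells of a mouse. Across the 417 cells the highest correlations of log-normalized levels among members were *Bgn* with *Eln* (r = 0.51), *Bgn* with *Mgp* (0.40) and *Eln* with *Fn1* (0.37), against a median of 0.08 over 231 pairs. These cells share libraries and depth, and the values are a description. After these values were seen, the 34 cells with a *Cd36* UMI (11, 3, 8 and 12), *Cd36* encoding a fatty acid transporter of capillary endothelium, were compared with the other Pecam1-positive cells of the same mice. Of 25 tested members *Fn1*, *Eln* and *Timp3* were lower, beside 0.592% of all 4897 tested genes lower and 1.08% higher, and no member was higher. *Fn1* stood at 489, 0, 786 and 922 CPM in *Cd36* cells against 1343, 1420, 1318 and 1682 CPM (-1.39, SE 0.29). The 0 rests on the 3 *Cd36* cells of mouse 2 labelled EC-KO. No p is given for *Fn1*, since it passed the filter only with the other cells. *Eln* stood at 2392, 2428, 2634 and 3115 CPM against 4149, 6193, 5751 and 4455 CPM (-1.0, SE 0.23, adjusted p = 0.00558, edgeR), and *Timp3* differed by -0.99 (SE 0.23, adjusted p = 0.00594, edgeR). For these 3 genes the highest mouse with *Cd36* lay under the lowest without, and *Pecam1* itself was lower in these cells in 4 of 4 mice, at 4142 CPM against 5663.

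In 15 of the 34 cells the *Cd36* count was 1. With at least 2 *Cd36* UMIs required, 19 cells remained, and 11 members were called lower and 2 higher, beside 3.79% and 2.18% of 4724 genes, while the median of all tested genes was -0.31. Of these 13, 5 (*Dcn*, *Col5a1*, *Col5a2*, *Fn1* and *Lama4*) passed the filter only with the cells in which they were higher, so the count is a description. *Bgn* then stood at 2243 CPM against 5775 (-1.64, SE 0.27, adjusted p = 1.39e-07, edgeR) and *Col1a2* at 68.9 against 739 CPM (-3.64, SE 0.48). The 2 genes called higher were *Col4a2*, at 689 against 171 CPM (1.61, SE 0.38, adjusted p = 7.79e-04, edgeR), and *Lama4*, at 216 against 42.1 CPM (2.15, SE 0.65, passing the filter only with the *Cd36* cells, so with no p), each higher in 4 of 4 mice. *Col15a1* did not pass the filter, and 61.8% of its UMIs in Pecam1-positive cells lay in the cells with a *Cd36* UMI, which held 9.82% of all UMIs. Only 7 of the 34 cells had any, and 3 of them held 39, 19 and 12 of the 76. Without mouse 1 labelled EC-WT the calls of *Eln* (-0.94, adjusted p = 0.0572) and *Timp3* (-0.91, adjusted p = 0.0707, edgeR) were lost at the threshold of 1 *Cd36* UMI. *Fn1* stood at -1.85 with DESeq2, uncalled. *Timp3* was not called in thinned cells (-0.80, adjusted p = 0.175, edgeR). Over cells with *Cd36* or *Fabp4*, *Timp3* was at -0.21 (adjusted p = 0.597, edgeR) and lost its call, while *Eln* (-0.43) was called and *Fn1* stood at -0.54.

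**Figure D5:**
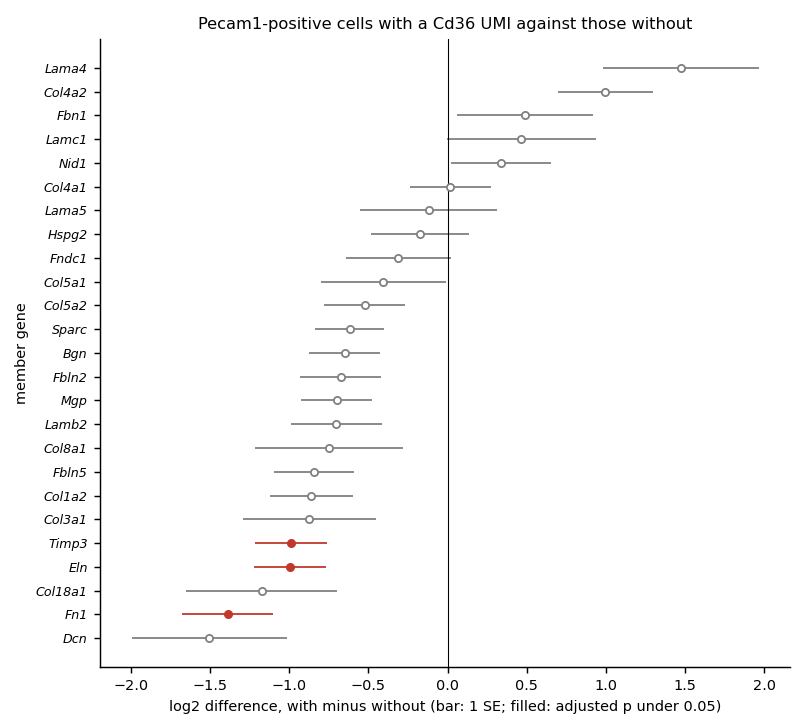
Log2 difference of the tested members between Pecam1-positive cells with and without a *Cd36* UMI (x axis), with 1 SE as bars and filled points at an adjusted p under 0.05. *Fn1*, *Eln* and *Timp3* are filled at -1.39 to -0.99, and *Lama4* (1.47) and *Col4a2* (1.00) lie highest without a call. *Fn1* passed the filter on low counts only with the cells without *Cd36*.

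Genes that act on the matrix were taken from 3 hand-made lists. No gene of 11 tested assembly enzymes, 9 tested proteases and inhibitors and 16 tested receptors was called between the labelled genotypes. The highest enzymes were *Tgm2*, a crosslinking transglutaminase, at 708, 1103, 1352 and 853 CPM, *P4hb*, a subunit of prolyl 4-hydroxylase, at 499 to 561 CPM, and *Serpinh1*, the collagen chaperone HSP47, at 348 to 575 CPM. Of the proteases and inhibitors *Timp2* was at 1331 to 1649 CPM, *Mmp2* at 350 to 482 CPM and *Adamts1* at 129 to 289 CPM. The leading receptors were *Itgb1*, the β1 integrin chain, at 1207 to 1427 CPM, *Bcam*, a laminin receptor, at 921 to 1312 CPM and *Itgb4*, the chain of the laminin-binding integrin α6β4, at 309 to 384 CPM. In gated cells *Itga8*, an integrin chain of smooth muscle, stood at 1766 CPM against 3.39 (fitted log2 difference 8.69, SE 0.67). *Itgb3* (2.48), *Itgb5* (2.44), *Adamts2* (2.10), *Adamts5* (2.44) and *Plod2* (2.16) were higher as well, and *Itgb4* was lower at 110 CPM against 357 (-1.58, SE 0.53). Of these genes *Itgb5* alone would have passed the filter in the set where it was lower (adjusted p = 2.18e-04, edgeR), so the others are given as description. In cells with a *Cd36* UMI, *Mmp2* was lower by 1.07 on the log2 scale (adjusted p = 0.0313, edgeR), and no other gene of these lists was called there.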

How the data were processed

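UMIs of sorted aortic cells were measured by SORT-seq in 4 mice. The authors deposited, for each plate, UMI counts, read counts and expected counts of transcripts per gene and well, none of them normalized, and the submitters' processing notes name BWA 0.7.15, Seurat and GRCm38 (mm10). The deposited expected counts equalled the UMI counts corrected for 4096 possible identifiers. The annotation is not given in the sources used here. Rows are named by symbol and chromosome, and a gene not listed on a plate has no UMI there. Plates reuse the same 384 well barcodes by design. The plates held 910699 to 1475546 UMIs, spike-ins included, at 10.5 to 22.1 reads per UMI, and mouse 1 labelled EC-KO was lowest in reads per UMI. No doublet caller was run.

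The members, lists and tests were chosen with earlier results of these data known. All 37 members are named, and of the 3 pathway lists those genes that were called in a comparison, or the 3 highest where none was, and 1 called gene of these lists is not reported here. UMIs were summed per mouse and compared with edgeR 4.0.16 in R 4.3.3 (TMM, filterByExpr, quasi-likelihood test, call at an adjusted p of 0.05), and log2 errors are the fitted difference over the root of its F value. DESeq2 1.42.0 was an alternative. Tables were made in Python 3.11.15. Labels do not say more of the mice than their group and number, and p-values measure the spread between these 4 animals. Limits for a count of 0 use 3 UMIs, and they, like the exact binomial 95% intervals, cover counting error only. Promoter windows and gene positions come from RefSeq (GRCm38.p6) and GENCODE M21.

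The fits were tested on simulated data at the fitted dispersions with known changes. Among the 7813 genes run for the comparison of labels, 86.0% of those changed 4-fold and 33.8% of those changed 2-fold were recovered. For the gated cells (4896 genes) these were 51.0% and 1.41%, and for the *Cd36* cells (4638 genes) 85.1% and 22.0%. Many genes were changed at once in these runs, which eases the adjusted threshold. The run for the labels called 131 genes, whereas the data called 0. The shares therefore do not give the chance that a change in the data would be called. Alternatives were other cell filters and gates, the transcript and read counts, thinned cells, no filter on low counts, leaving out cells rich in members or in fibroblast genes, leaving out *Rn45s*, each mouse in turn, and the replicate number as a block. Requiring 1 gated cell per mouse in place of 2 gave the same 4 mice. The comparison by *Cd36*, the fits without *Cd36* cells, with crossed numbers, with gated cells of at most 5 *Pecam1* UMIs and without the richest gated cell were chosen after the data were seen.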

Additional observations from a re-analysis of the deposited data

Results flagged for a closer look

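The members had 985 UMIs in the 480 wells of plate rows L to P, which the comparisons did not use and where no well passed the cell filter, out of 28791 UMIs in those wells. *Mgp* led there with 179 UMIs (6217 CPM), *Eln* had 175 (6078 CPM) and *Timp3* 150 (5210 CPM). *Lum*, *Fbn1*, *Lamb1*, *Chad* and *Nid2* had none.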

How the results depend on the processing

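Between the labelled genotypes, no gene was called in the comparison as reported, and also none with DESeq2, transcript or read counts, other UMI minimums, no mitochondrial limit, without *Rn45s* or without the cell richest in members. Genes (and members) called were 19 (3) with no low-count filter, 10 (1) over all kept cells, 14 (2) over cells with at most 1 fibroblast gene, 1 (0) after thinning, 3 (1) without *Cd36* cells, and 18 to 79 (1 to 8) with 1 mouse left out. The replicate number as a block gave 2 genes and 1 member, *Lum*, and crossed numbers 1 and 1. Same-numbered mice did not deviate together (r = -0.04 over 8123 genes), so the numbers were not taken as pairs. *Col15a1* reversed to 4.23 without mouse 2 labelled EC-WT (-1.89 without mouse 1), and another 71 sign changes were of members called under neither setting.

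In the gated cells 492 genes and 13 members were called, and 861 genes with no mouse block. With 1 mouse left out 158 to 666 genes and 8 to 14 members were called. Without the gated cell richest in members 275 genes and 8 members were called. The *Cd36* comparison called 82 genes and 3 members, 282 and 13 with at least 2 *Cd36* UMIs, 158 and 10 with *Cd36* and *Fabp4*, 36 genes with *Cd36* or *Fabp4*, 24 genes after thinning, 11 members with no low-count filter, and 42 to 77 genes and 2 to 6 members with 1 mouse left out. No member called as reported in the gated or *Cd36* comparison changed direction, while *Dcn*, called lower only under other *Cd36* settings, stood at 0.40 with *Cd36* or *Fabp4*. Thinning moved the spread genes from 12 to 7 and those carried by few cells from 12 to 21. The causes were not tested. Depth limits the genes carried by few cells, several of which rest on under 50 UMIs.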
